A study of Mus musculus with 6 samples.

Results

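The subunit genes of respiratory complexes II, III and IV, of cytochrome c and of ATP synthase (complex V) were read in white adipose tissue of mice lacking KSR2. The list held 40 nuclear genes, chosen by symbol. Of these, 39 were measured by at least 1 probe set that names a single gene, among 18193 genes in all, and Cox7b was not analysed here. Complex II had 4 of 4 genes measured, complex III 9 of 9, complex IV 10 of 11 and ATP synthase 15 of 15, with cytochrome c as 1 gene more. Each gene was represented by its brightest probe set over all arrays.

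In the inner mitochondrial membrane, complex II passes electrons from succinate to ubiquinone. Complex III hands them on to cytochrome c, a small soluble carrier, and complex IV gives them to oxygen. Complexes III and IV pump protons, and ATP synthase lets the protons return and makes ATP. White adipocytes hold few mitochondria beside brown ones, yet depend on them for fatty acid synthesis and re-esterification. KSR2 (kinase suppressor of Ras 2) brings the kinases of the Raf-MEK-ERK cascade together and also binds AMP-activated kinase.

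The tissue came from 6 female C57Bl6 mice aged 6 months, 3 of genotype WT and 3 of genotype KSR2-/-, with 1 mouse on each Affymetrix array. No treatment is named in the labels. The sources used here do not give the fat depot, the deleted part of Ksr2 or the relation between the animals. The deposited values are linear RMA intensities and were taken to log2, so that a difference of −1 is a halving. Array medians ran from 22.4 to 24.2 on the linear scale. Adipocyte markers read high in both groups, with a mean log2 intensity of 11.91 ± 0.17 in WT and 11.52 ± 0.65 in KSR2-/- (SD, n = 3 each, 7 of 9 markers measured). The Ksr2 probe set read 4.74, 4.04 and 4.47 in WT and 4.47, 4.28 and 4.26 in KSR2-/-. Whether it lies in the deleted part is not given, so it does not check the genotype.

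Some arrays stood apart. Gapdh control probe sets at the 3' and 5' ends, which part when RNA is degraded, differed by 4.18 (log2) in WT 3 and by 0.07 to 1.46 on the other arrays. WT 3 also carried the highest skeletal muscle marker level, 1.72 above the WT mean, against −1.32 to −0.16 on the others. Animal numbers fall into a higher series (WT 1 and 2, KSR2-/- 1 and 2) and a lower one (WT 3 and KSR2-/- 3). What the numbering stands for is not given. KSR2-/- 3 lay nearer to WT than the other KSR2-/- arrays in most of the subunit genes.

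Promoters of the measured genes are shown because nuclear respiratory factor 1 (NRF1), GA-binding protein (GABPA) and other factors are known to switch these genes on together. Windows of 250 bases before to 50 after the start site (RefSeq, GRCm38.p6) were matched by symbol for 31 of the 40 genes. Both strands were searched for GCGCA and GCGC with any 1 base between them (the long NRF1 form) and for the overlapping GCATGCGC (the short NRF1 form), CCGGAAGT (GABPA and other ETS factors), CAAGGTCA (the estrogen-related receptor ERRA) and AAGATGGC (YY1). The following stretches are the 100 bases before the start site in 7 members, with matches in capitals. They were picked because they hold a match there, an NRF1 form in 6 and the ETS letters on the reverse strand in Uqcrh. Other members have windows with none of these letters, among them Uqcrfs1, Cox5a, Cox5b and Atp5g1.
Sdha, chr13:74350241-74350340, minus strand: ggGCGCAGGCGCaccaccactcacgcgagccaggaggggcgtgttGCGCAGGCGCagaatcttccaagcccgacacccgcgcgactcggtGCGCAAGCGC
Sdhb, chr4:140961171-140961270, plus strand: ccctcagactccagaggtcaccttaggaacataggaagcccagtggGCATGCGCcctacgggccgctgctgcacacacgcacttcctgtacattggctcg
Sdhd, chr9:50603850-50603949, minus strand: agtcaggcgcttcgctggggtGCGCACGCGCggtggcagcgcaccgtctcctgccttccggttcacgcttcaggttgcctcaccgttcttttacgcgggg
Uqcrh, chr4:116075071-116075170, minus strand: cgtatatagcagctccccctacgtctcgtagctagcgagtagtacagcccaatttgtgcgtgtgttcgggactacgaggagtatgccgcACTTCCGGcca
Cycs, chr6:50566570-50566669, minus strand: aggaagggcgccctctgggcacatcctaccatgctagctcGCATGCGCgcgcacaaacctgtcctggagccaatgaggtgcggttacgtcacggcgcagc
Atp5k, chr5:108434400-108434499, minus strand: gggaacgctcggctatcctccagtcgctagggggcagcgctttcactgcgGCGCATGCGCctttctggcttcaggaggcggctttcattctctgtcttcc
Atp5g2, chr15:102671048-102671147, minus strand: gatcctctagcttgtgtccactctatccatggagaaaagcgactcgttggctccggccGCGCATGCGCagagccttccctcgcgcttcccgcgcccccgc

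Either NRF1 form stood in the window of 14 of 31 listed genes (45.2%), beside 1602 of 14452 array genes with a window (11.1%). The long form alone was held by 10 of 31 (32.3%), against 8.61% of array genes and 4.6% of all 32851 windows. The short form was held by 8 (25.8%, against 4.68% and 2.71%). The ETS letters were held by 4 (12.9%, against 6.62% and 3.89%), the ERRA letters by 3 (9.68%, against 1.58% and 1.56%) and the YY1 letters by 3 (9.68%, against 4.07% and 2.75%). Sdha held the long form 3 times within the stretch shown. Among measured members, those with the long form had a median log2 difference of −0.41 and those without it −0.44. For the short form these medians were −0.43 and −0.44, and for the ETS letters −0.61 and −0.37. They were −0.30 and −0.44 for the ERRA letters and −0.44 and −0.44 for the YY1 letters. The medians rest on few genes, and these contrasts were not tested. A match describes the letters and is not a site of binding.

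Of the 39 measured genes, 38 had a lower mean in KSR2-/- than in WT, where 55.6% of all genes did. The median log2 difference was −0.44 over the members, with extremes of −0.82 for Sdhb and 0 for Cox5a, and −0.04 over all genes. No member passed limma at an adjusted p under 0.05, and the smallest adjusted p was 0.267, for Cyc1. Over all genes 1 passed (0.0055%), Il13ra2, which is no member. At an unadjusted limma p under 0.05, 15 members were lower and 0 higher, against 5.38% and 6.71% of all genes. The KSR2-/- and WT values did not overlap in 18 members, all lower, against 8.56% of all genes lower and 7.72% higher. After centring the arrays on their median gene, Cox5a also lay below 0, at −0.04, and the count was 39 of 39. The share of all genes below 0 was then 61.5%. In bulk tissue, fewer cells that carry these transcripts and less of the RNA per cell cannot be told apart.

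**Figure D1:**
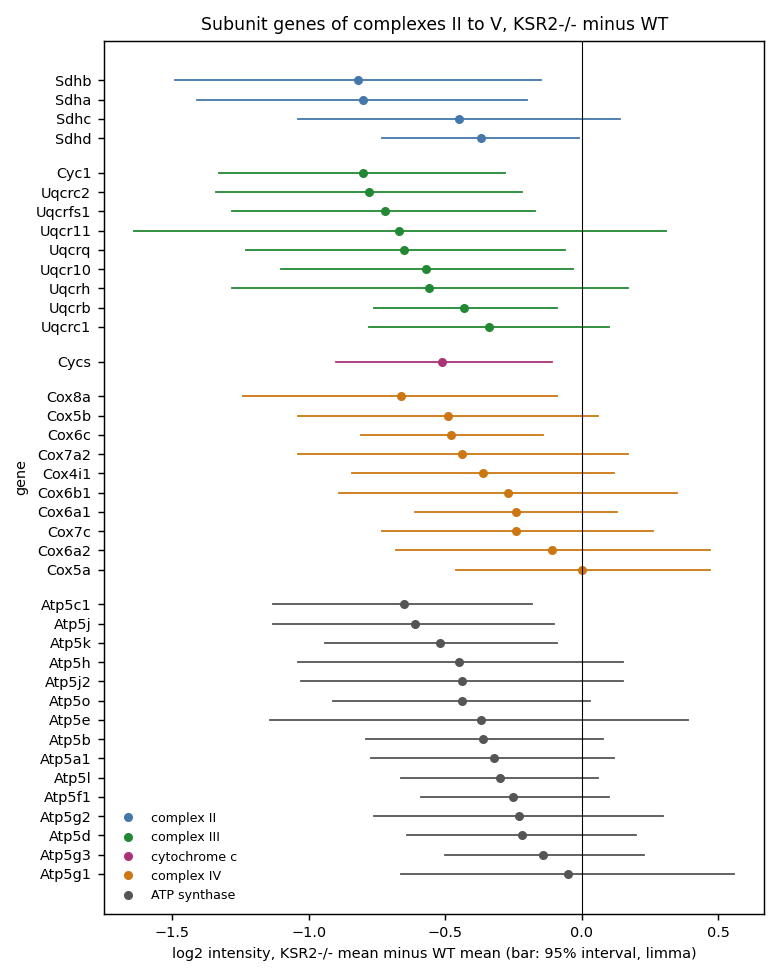
Log2 intensity of KSR2-/- minus WT for each of the 39 measured genes (dots) with the 95% interval of the limma fit (bars), grouped by complex, n = 3 mice each. All dots but that of Cox5a lie left of 0, and 15 intervals do not reach 0 before adjustment.

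By complex, the median log2 difference was −0.63 for complex II and −0.65 for complex III, and −0.31 for complex IV and −0.36 for ATP synthase. The differences ran from −0.82 to −0.37 in complex II, from −0.80 to −0.34 in complex III, from −0.66 to 0 in complex IV and from −0.65 to −0.05 in ATP synthase, so that the ranges overlapped. Unadjusted limma p was under 0.05 for 3 of 4, 6 of 9, 2 of 10 and 3 of 15 members, and for Cycs. All of these were lower, where 5.38% of all genes passed on the lower side and 6.71% on the higher. These contrasts between complexes were not tested.

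KSR2-/- 1 was the lowest of the 6 arrays in 30 of the 39 genes, where it was lowest in 23.1% of all genes. KSR2-/- 3 was the highest of its group in 29, against 39.3% of all genes. KSR2-/- 1 lay below every WT array in 34 members (32.1% of all genes), KSR2-/- 2 in 30 (31.4%) and KSR2-/- 3 in 20 (22%). Averaged over the members, log2 intensity was 11.28, 11.56 and 11.43 in WT 1 to 3 and 10.71, 11.04 and 11.21 in KSR2-/- 1 to 3. All 3 KSR2-/- means lay below all WT means, that of KSR2-/- 3 by the least. Within the higher-numbered series the median difference was −0.53 and 37 members were below 0. Within the lower-numbered pair it was −0.25 with 33 below 0, where 59.2% of all genes were.

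Single arrays moved the counts. Without KSR2-/- 1, 5 members had an unadjusted limma p under 0.05 on the lower side (3.06% of all genes), without WT 2 there were 3 (2.86%) and without WT 3 there were 8 (3.82%). Without KSR2-/- 3 there were 21 (7.51%). Cyc1 alone of the 39 members then passed, at a limma adjusted p of 0.0443, where 816 of all genes (4.49%) passed. Without KSR2-/- 1 the median difference of the members was −0.28, and by complex it was −0.42 for complex II, −0.39 for complex III, −0.20 for complex IV and −0.23 for ATP synthase. Without WT 3, the array with the Gapdh and muscle readings, the median of the members was −0.42.

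**Figure D2:**
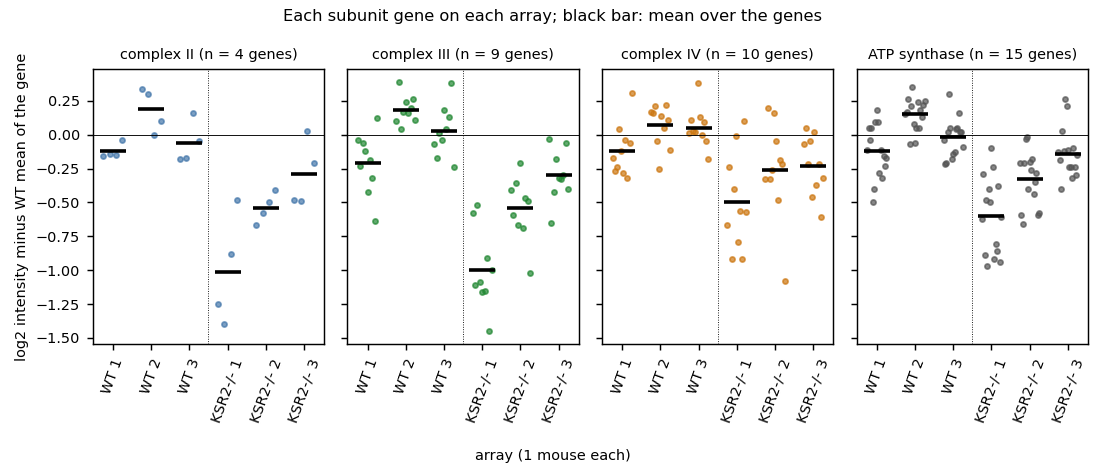
Log2 intensity of each gene minus its own WT mean (points) on each of the 6 arrays, in a panel for each complex, with the mean over the genes as a black bar. In each panel the lowest bar is that of KSR2-/- 1, from −1.01 in complex II to −0.50 in complex IV, and the bar of KSR2-/- 3 lies nearest to 0 among the KSR2-/- arrays.

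Complex II, also the succinate dehydrogenase of the citric acid cycle, consists of 4 subunits. Sdha, the flavoprotein that oxidises succinate, measured 11.35, 11.85 and 11.33 in WT 1 to 3 and 10.26, 10.84 and 11.03 in KSR2-/- 1 to 3. The groups did not overlap, and the difference was −0.80 (SE 0.26, limma adjusted p = 0.303), or 57.2% of the WT level. Its iron-sulfur partner Sdhb measured 11.33, 11.77 and 11.30 in WT and 10.07, 10.89 and 10.98 in KSR2-/-. That difference, −0.82 (SE 0.28, limma adjusted p = 0.323), was the most negative of all members, again without overlap. The membrane anchors, which bind heme and ubiquinone, differed less. Sdhc measured 9.91, 10.06 and 10.22 in WT and 9.18, 9.56 and 10.09 in KSR2-/- (difference −0.45, SE 0.25), and its groups overlapped through KSR2-/- 3. Sdhd measured 10.35, 10.49 and 10.34 in WT against 9.91, 9.98 and 10.18 (difference −0.37, SE 0.15), with no overlap and a small spread. A further bright Sdha probe set gave −0.82. Within the lower-numbered pair, Sdha, Sdhb, Sdhc and Sdhd differed by −0.30, −0.32, −0.12 and −0.16.

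In complex III the catalytic subunits carry the redox groups. Cyc1, cytochrome c1, measured 11.74, 11.73 and 11.38 in WT and 10.62, 10.60 and 11.22 in KSR2-/-. Its values were low in KSR2-/- 1 and 2 and near those of WT 3 in KSR2-/- 3, with a difference of −0.80 (SE 0.22, limma adjusted p = 0.267, and 0.0443 to 0.758 over the alternatives tested). In the higher-numbered series it was −1.12, but −0.16 in the lower-numbered pair. The Rieske iron-sulfur protein gene Uqcrfs1 measured 10.83, 11.18 and 11.06 in WT against 9.87, 10.33 and 10.69 in KSR2-/- (difference −0.72, SE 0.24), with no overlap. Uqcrc2, a core subunit of the matrix arm, measured 10.86, 11.48 and 10.92 against 9.98, 10.50 and 10.44 (difference −0.78, SE 0.24), and a second probe set gave −0.81. Its partner core subunit Uqcrc1 measured 10.49, 10.63 and 10.46 against 9.95, 10.12 and 10.50, and here KSR2-/- 3 lay among the WT arrays. The difference of Uqcrc1, −0.34 (SE 0.19), was the least negative of the complex.

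Among the small subunits of complex III, which surround the core and carry no redox group, Uqcrb had the tightest groups. It measured 13.13, 13.23 and 13.20 in WT and 12.67, 12.83 and 12.77 in KSR2-/-, a difference of −0.43 (SE 0.14, limma adjusted p = 0.314), with −0.43 in either series of animal numbers. A second bright Uqcrb probe set gave −0.54 with a wider spread (SE 0.27), and its groups overlapped. Uqcrq (−0.65), Uqcr11 (−0.67), Uqcr10 (−0.57) and the hinge protein gene Uqcrh (−0.56) were lower by similar amounts, with overlap between the groups in all but Uqcrq. A second bright Uqcrh probe set gave −0.42 (SE 0.13) without overlap. Cycs, which encodes the somatic cytochrome c that carries electrons from complex III to complex IV, measured 12.21, 12.41 and 12.35 in WT and 11.58, 11.91 and 11.96 in KSR2-/-. All its KSR2-/- values lay below all WT values, with a difference of −0.51 (SE 0.17, limma adjusted p = 0.314), or 70.4% of the WT level. Further bright Cycs probe sets gave −0.54 and −0.60.

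Complex IV has a catalytic core encoded by mitochondrial DNA, and the listed genes encode the nuclear subunits around it. Cox6c measured 12.38, 12.47 and 12.42 in WT and 11.86, 11.94 and 12.05 in KSR2-/-, tight groups without overlap and a difference of −0.48 (SE 0.14, limma adjusted p = 0.289). A second bright Cox6c probe set gave −0.64 with a wider spread (SE 0.32), and its groups overlapped. Cox8a measured 11.61, 11.19 and 11.12 in WT against 10.73, 10.22 and 10.98 in KSR2-/- (difference −0.66, SE 0.24), the most negative of the complex, although KSR2-/- 3 lay only 0.14 under WT 3. Cox5b, a zinc-binding subunit on the matrix side, measured 12.40, 12.85 and 12.67 against 11.72, 12.31 and 12.42 (difference −0.49, SE 0.23), with KSR2-/- 3 just above WT 1. Cox4i1, the widely expressed form of the subunit that binds ATP, measured 12.44, 12.78 and 12.62 against 11.94, 12.28 and 12.54 (difference −0.36, SE 0.20), and its groups overlapped.

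Cox5a, which with Cox4i1 joins the core early in assembly, measured 11.52, 11.95 and 11.90 in WT and 11.55, 11.99 and 11.84 in KSR2-/-. Its groups coincided, with a mean of 11.79 in each and a 95% interval of the difference from −0.46 to 0.47. The other bright Cox5a probe sets gave −0.18 and −0.18. Subunit 6A has a liver-type and a heart and muscle-type form. The liver-type gene Cox6a1 measured 13.27, 13.18 and 13.25 in WT against 12.83, 12.97 and 13.18 in KSR2-/- (difference −0.24, SE 0.16), with no overlap but a narrow gap. A second bright Cox6a1 probe set gave −0.40 with overlap. The muscle-type gene Cox6a2 measured 6.07, 5.94 and 6.57 against 6.18, 6.35 and 5.73 (difference −0.11, SE 0.24), and its highest value was that of WT 3, the array with the highest muscle markers. Without WT 3 the Cox6a2 difference was 0.08. Cox7a2 (−0.44), Cox6b1 (−0.27) and Cox7c (−0.24) had overlapping groups. For Cox7c both probe sets were dim, at 5.41 in WT and 5.17 in KSR2-/- for the brighter, under the median gene mean of 5.96. A second bright probe set of Cox7a2 gave −0.59 and one of Cox6b1 −0.22, both without overlap.

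**Figure D3:**
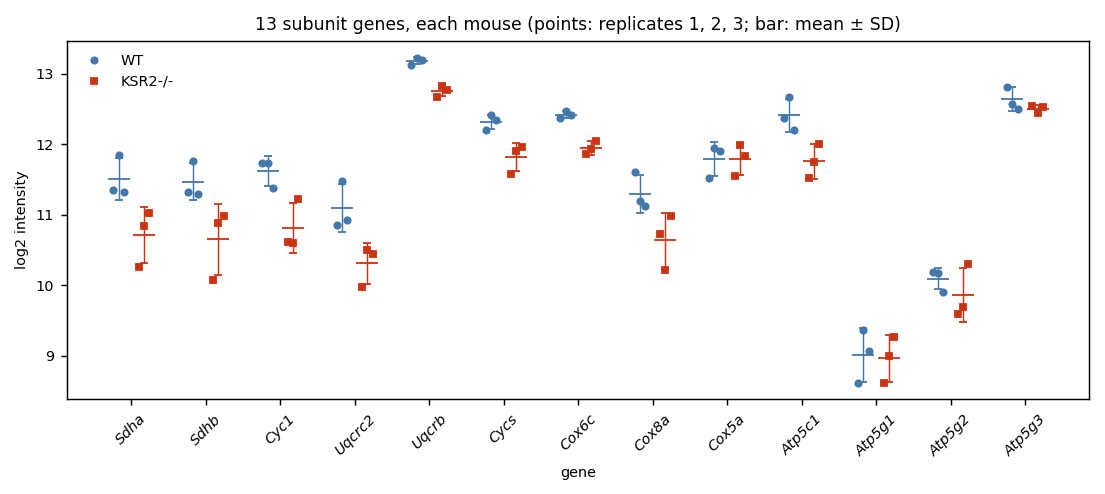
Log2 intensity of 13 subunit genes in each mouse (points, WT as blue circles and KSR2-/- as red squares, replicates 1 to 3 from left to right) with the mean ± SD. On the brightest probe sets shown, Cox6c and Uqcrb have tight groups with a gap, and the groups of Cox5a, Atp5g1, Atp5g2 and Atp5g3 overlap.

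ATP synthase joins a catalytic F1 head in the matrix to a proton-driven rotor and a stator in the membrane. In the head, the central shaft gene Atp5c1 (gamma) measured 12.37, 12.67 and 12.20 in WT and 11.52, 11.75 and 12.01 in KSR2-/-. Its groups did not overlap, and its difference of −0.65 (SE 0.20, limma adjusted p = 0.297) was the most negative of the enzyme. A dim Atp5c1 probe set, with a mean of 5.36, gave 0.47 the other way. The subunits of the catalytic ring differed less, Atp5a1 (alpha) by −0.32 and Atp5b (beta) by −0.36. Atp5d (delta) and Atp5e (epsilon), at the foot of the shaft, differed by −0.22 and −0.37. The 5 genes of the head had a median of −0.36 and the 10 others one of −0.37.

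The stator holds the head still, and its coupling factor 6 gene Atp5j measured 11.48, 11.93 and 11.73 in WT and 10.77, 11.12 and 11.41 in KSR2-/- (difference −0.61, SE 0.22), without overlap. Atp5o, the oligomycin sensitivity protein at the top of the stator, measured 11.36, 11.78 and 11.44 against 10.92, 10.95 and 11.38 (difference −0.44, SE 0.20), and KSR2-/- 3 reached the WT range. The stalk genes Atp5f1 (subunit b) and Atp5h (subunit d) differed by −0.25 and −0.45. Second bright probe sets gave −0.52 for Atp5f1 and −0.53 for Atp5h, the latter without overlap. Atp5k, subunit e at the interface of ATP synthase dimers, measured 12.08, 12.24 and 12.24 against 11.38, 11.75 and 11.87 (difference −0.52, SE 0.18, limma adjusted p = 0.325), with no overlap. Its neighbours Atp5l (subunit g) and Atp5j2 (subunit f) differed by −0.30 and −0.44.

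The rotor ring is built of subunit c, for which Atp5g1, Atp5g2 and Atp5g3 encode the same mature protein with different import sequences. Atp5g1 measured 8.61, 9.36 and 9.06 in WT and 8.61, 8.99 and 9.27 in KSR2-/- (difference −0.05, 95% interval −0.66 to 0.56). For Atp5g2 the values were 10.18, 10.17 and 9.91 against 9.59, 9.69 and 10.30, low in KSR2-/- 1 and 2 and the highest of all arrays in KSR2-/- 3 (difference −0.23, 95% interval −0.76 to 0.30). Atp5g3 measured 12.82, 12.58 and 12.50 against 12.54, 12.44 and 12.53 (difference −0.14, 95% interval −0.50 to 0.23). All 3 overlapped between the groups and, within the lower-numbered pair, lay above 0 at 0.21, 0.38 and 0.03. Atp5d, at −0.22 (95% interval −0.64 to 0.20), lay as near to 0 as Atp5g2. Whether subunit c genes differ less than the other subunits was not tested.

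Of the 39 members, 28 had more than 1 single-gene probe set, 45 further probe sets in all. Of these, 29 were at least as bright as the median gene mean, and all 29 gave a difference below 0. The 16 dimmer ones gave 10 below 0 and 6 above. Overlap between the groups was read on the brightest probe set and depended on that choice. Sdhd, Uqcrb, Cox6c, Cox6a1 and Atp5k, among others, did not overlap there but did on a further bright probe set. Uqcrh, Cox7a2, Cox6b1 and Atp5h overlapped there but not on a further bright one.

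Other genes of the same machinery were taken from lists chosen by function. No gene in these lists passed limma at an adjusted p under 0.05. The counts that follow use the unadjusted limma p, which 5.38% of all genes passed on the lower side and 6.71% on the higher. Isoform and accessory subunits had 8 of 14 below 0 and a median of −0.18, with 3 lower and 0 higher by that count. Some were dim. Cox4i2 (0.21), Cox7b2 (0.09) and Cyct (0.03) lay under the median gene mean of 5.96 on every array, and Cox6b2 (−0.14) in both group means. Cox8b, a subunit isoform of brown fat and muscle, measured 9.51, 10.97 and 10.31 in WT and 7.95, 8.67 and 8.97 in KSR2-/- (difference −1.73, SE 0.41, limma adjusted p = 0.240), without overlap. Ndufa4, now counted as a complex IV subunit, measured 11.61, 11.82 and 11.87 against 10.85, 10.96 and 11.40 (difference −0.70, SE 0.19). Assembly factors of complexes II to V had 30 of 33 below 0 and a median of −0.27, with 2 lower and 0 higher. They were Uqcc3 (−0.69) and Cox20 (−0.59), which act in the assembly of complexes III and IV.

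Of the genes listed for coenzyme Q, the lipid carrier between complexes II and III, 10 of 12 measured lay below 0. Their median was −0.50, with 4 lower and 1 higher, and not all of them encode enzymes that make it. Coq8a, a kinase-like protein of the synthesis complex, measured 8.31, 8.23 and 8.19 in WT and 6.58, 7 and 7.5 in KSR2-/-, a clear gap (difference −1.22, SE 0.24, limma adjusted p = 0.197). Coq2, which attaches the isoprenoid tail, differed by −0.94 (SE 0.30), and the higher gene, named after its value was seen, was Coq10b at 0.69 (SE 0.25). Core subunits of complex I lay below 0 in 6 of 6, with a median of −0.60, 2 lower and 0 higher, Ndufs1 (−0.73) and Ndufv2 (−0.56). Carriers, porins, import proteins and citrate synthase had 12 of 16 below 0 and a median of −0.23, with 0 lower and 0 higher. Citrate synthase, Cs, differed by −0.52 (SE 0.24) and the chaperonin gene Hspe1 by −0.31 (SE 0.14). Among nuclear regulators 5 of 9 lay below 0, with a median of −0.01, 1 lower and 0 higher. Ppargc1a, the coactivator PGC-1α, measured 5.57, 5.61 and 4.68 in WT and 3.63, 3.40 and 3.92 in KSR2-/- (SE 0.29, limma adjusted p = 0.193), a difference of −1.64 that was −0.77 in the lower-numbered pair. Its probe set was dim, under the median gene mean of 5.96 on every array. Tfam, which drives transcription of mitochondrial DNA, differed by −0.32. Nrf1 and Gabpa, named because their letters were searched, differed by 0.24 (SE 0.18) and 0.03 (SE 0.16).

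**Figure D4:**
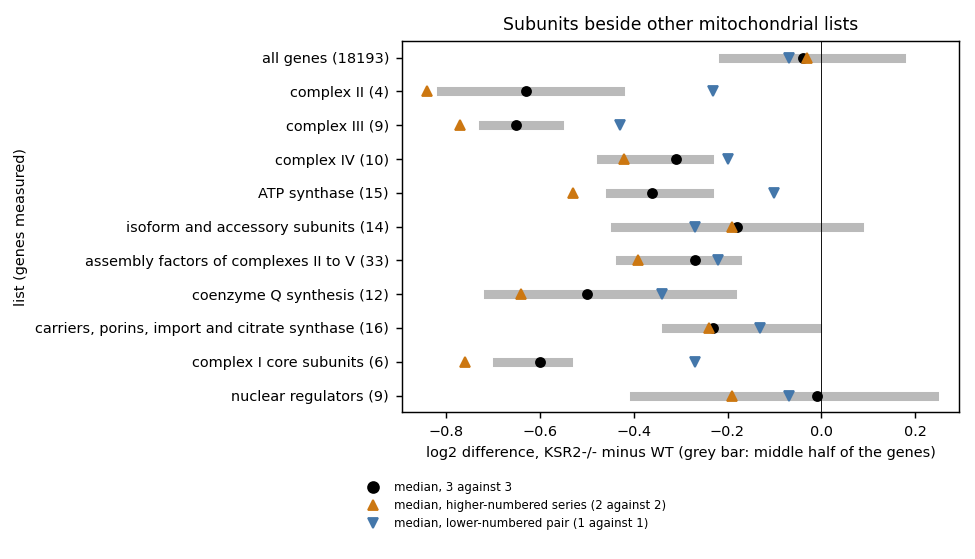
Median log2 difference of KSR2-/- minus WT (black dots) for all genes, for each complex and for other mitochondrial lists, with the quartiles as grey bars and the medians of each animal number series as triangles. On the brightest probe sets, complexes II and III and the core of complex I lie between −0.65 and −0.60, and the nuclear regulators at −0.01.

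Marker lists of cell types were read beside the subunit genes. All 12 macrophage markers were higher in KSR2-/-, with a median of 1.03. At an unadjusted limma p under 0.05, 7 of them were higher, against 6.71% of all genes, and 0 of the markers passed at an adjusted one. Their summed linear intensity was 11400 to 11900 in WT and 14200 to 30500 in KSR2-/-, and the lowest single reading was that of Itgam in WT 3, 3.77. The mean macrophage marker level lay 1.54, 1.46 and 0.34 above the WT mean in KSR2-/- 1 to 3, where the subunit genes lay at −0.71, −0.39 and −0.22. Cd68, a lysosomal macrophage protein, measured 7.55, 7.95 and 7.67 in WT and 10.88, 10.85 and 8.84 in KSR2-/-, and the complement gene C1qc differed by 1.07 (SE 0.23). Of 7 measured adipocyte markers 6 lay below 0, with a median of −0.51. By unadjusted limma p 3 were lower and 1 was higher, against 5.38% and 6.71% of all genes. Their summed intensity was 41400 to 46500 in WT and 28200 to 47500 in KSR2-/-, and their mean level lay −0.91, −0.60 and 0.34 from the WT mean in KSR2-/- 1 to 3. Retn, the hormone resistin, differed by −1.23 (SE 0.42) and Lep, leptin, by 1.45 (SE 0.57). The part of these cell types in the subunit differences was not tested.

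Brown and beige markers had 6 of 6 measured genes below 0, with a median of −0.20 and 1 lower by unadjusted limma p (5.38% of all genes). That gene was Cidea, at −3.07 (SE 0.70), the others lying between −0.29 (Elovl3, SE 0.21) and −0.07. Those others were dim. Elovl3, Dio2, Ppara and Zic1 lay under the median gene mean of 5.96 on every array, and Ucp1 on all but WT 3 and KSR2-/- 3. The summed intensities, 474 to 695 in WT and 113 to 311 in KSR2-/-, rest largely on Cidea in WT. Ucp1, the brown fat uncoupling protein, measured 3.79, 3.84 and 7.27 in WT and 4.20, 4.24 and 6.25 in KSR2-/-, higher in WT 3 and KSR2-/- 3 than on the other arrays, and it was singled out after its values were seen. Skeletal muscle markers summed to 879 to 2840 in WT and 752 to 1820 in KSR2-/-, with 7 of 9 below 0 and 1 lower by unadjusted p. The differences ran from −1.03 to 0.61, with Myl1 at −1.01 (SE 0.29) and Ckm at −0.86 (SE 0.61). In the pair that holds WT 3 their median was −2.17, and it was 0.11 in the higher-numbered series. Heart muscle markers were dim throughout, summing to 51.9 to 58.5 in WT and 45 to 54.2 in KSR2-/- (Tnnt2 −0.33, Myh6 −0.21). Stromal progenitor markers summed to 10300 to 10500 and 8040 to 10700 (4 of 4 below 0, Pdgfra −0.41, Dcn −0.14), and endothelial markers to 467 to 746 and 465 to 724 (1 of 5 below 0, Tek −0.58, Cdh5 0.26). T cell markers summed to 145 to 483 and 241 to 450 (1 of 5 below 0, Cd8a 0.37, Cd3g 0.33), and B cell markers to 108 to 425 and 230 to 294 (0 of 3 below 0, Cd79b 0.61, Cd79a 0.35). Mesothelial markers summed to 805 to 1310 and 614 to 2710, with 1 of 5 below 0 and differences from −0.40 (Krt19) to 0.96 (Msln), Lrrn4 being at 0.21. Among KSR2-/- 3 and WT 3 their median was 1.54, with KSR2-/- 3 the highest of all arrays in their mean level, but −0.41 in the higher-numbered series. Mammary epithelial markers summed to 162 to 1250 and 149 to 846 (5 of 5 below 0, Csn2 −0.67, Epcam −0.33). Their part was not tested either.

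**Figure D5:**
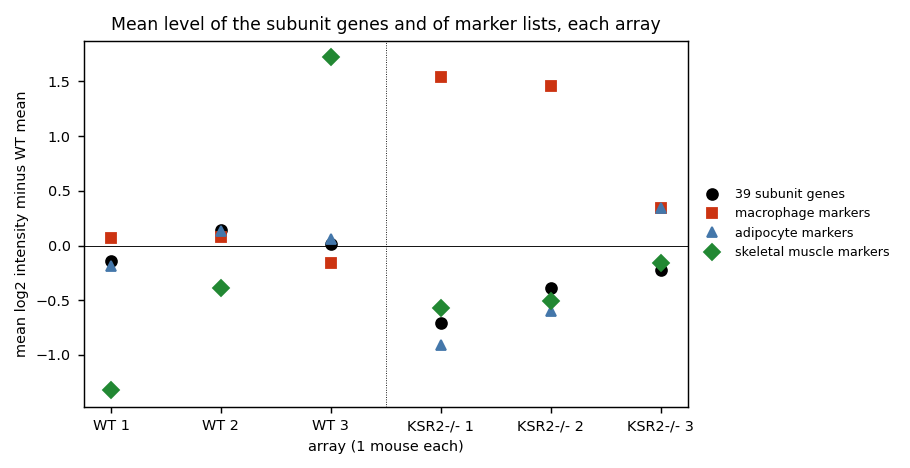
Mean log2 intensity of the 39 subunit genes and of the macrophage, adipocyte and skeletal muscle markers on each array, minus the mean over the WT arrays. KSR2-/- 1 and 2 have the lowest subunit and adipocyte levels and the highest macrophage levels, and WT 3 has the highest muscle level.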

How the data were processed

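White adipose tissue RNA of 6 mice was measured on 6 arrays. The values are intensity values made with RMA (per the submitters' processing notes, no version given), which the authors deposited on a linear scale. RMA normalizes all arrays to a common distribution, so they are not independent at that step. Of 45101 probe sets, 34945 named a single gene in the platform annotation, 932 several, 9160 none and 64 were controls. Symbols were updated to RefSeq GRCm38.p6 for 34741. The log2 intensities of 18193 genes (brightest probe set, no dim filter, no pseudocount) were fitted with limma 3.58.1 in R 4.3.3 (lmFit, eBayes, 3.06 prior degrees of freedom), using two-sided p-values adjusted over all genes by Benjamini and Hochberg. The fit was tested on simulated data with independent noise for each gene and planted differences larger than those of the members. That simulation does not bear on smaller differences or on shifts shared by many genes. The median standard error was 0.22. The number of arrays limits the precision. The p-values weigh each difference against the spread between mice within the groups, which eBayes moderates with that of all genes.

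Members, lists and tests were chosen with earlier results of these data known, and the promoter letters after the values were seen. The series' own method, gene set enrichment, was not used here. All complex II members, Cycs, the 4 members of each other complex with the smallest p, the highest of each complex and the isoform sets are given by array, and of each other list the 2 genes with the smallest p are named. Alternatives were a dim filter, other probe set rules, renewed normalization or centring, a variance trend, the animal number series, the Gapdh covariate and each array left out.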

Additional observations from a re-analysis of the deposited data

How the results depend on the processing

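The median difference of the members stayed below 0 in all 16 alternatives, from −0.55 to −0.28 with single arrays left out and at −0.25 within the lower-numbered pair. With single arrays left out the medians ran from −0.83 to −0.42 for complex II, −0.85 to −0.39 for complex III, −0.46 to −0.20 for complex IV and −0.45 to −0.23 for ATP synthase. Within the lower-numbered pair they were −0.23 for complex II and −0.10 for ATP synthase. The members past the threshold numbered 0 to 1 with single arrays left out and 0 in each other alternative with a test. The 1 was Cyc1 without KSR2-/- 3, where 4.49% of all genes passed. Members lower at an unadjusted limma p under 0.05 numbered 3 (without WT 2, 2.86% of all genes) to 21 (without KSR2-/- 3, 7.51%) with single arrays left out. They numbered 9 with the dimmest probe set of each gene (4.75% of all genes). Genes called over the whole table numbered 0 to 816 with single arrays left out, 12 with the dim filter, 12 with quantile normalization repeated, 16 with centring, 10 with a variance trend, 6 with the Gapdh covariate, 0 with a block for animal number and 487 within the higher-numbered series. The cause was not tested.

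For the 24 members given by array, 343 values under alternatives with a test kept their direction and side of the threshold, 1 (Cyc1) passed it and 16 changed sign. In the lower-numbered pair, which allows no test, 19 kept their sign and 5 did not. With the mean of all probe sets Cox5a was −0.12, Atp5g1 0.04 and Atp5g2 0.03. With the dimmest probe set Cox5a was −0.18, Atp5c1 0.47 and Atp5g1 0.12. Cox5a was −0.04 with centring, and Cox6a2 was 0 with the Gapdh covariate and 0.26 within the higher-numbered series. Within the lower-numbered pair Uqcrc1 was 0.04, Cox5a −0.06, Atp5g1 0.21, Atp5g2 0.38 and Atp5g3 0.03, and of the other members Atp5b was 0.03 and Atp5d 0.01. With single arrays left out Cox5a ran from −0.13 to 0.13, Cox6a2 from −0.24 to 0.08 and Atp5g1 from −0.25 to 0.13. No paired analysis was possible because the labels carry no replicate numbers shared between the genotypes.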
